A study of Mus musculus with 15 samples.

Results

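The genes described here were 9 that mark endothelial cells, the cells that line blood vessels and the chambers of the heart. They were the rows of the deposited expression table whose symbol was Cdh5, Pecam1, Kdr, Flt1, Tek, Tie1, Vwf, Eng or Ace, and all 9 were found among its 16199 genes. Each symbol occurred in a single row, and all 9 passed the filter for testing (a mean of at least 1 RPKM over all hearts), together with 10557 genes in total. RPKM counts reads per kilobase of a gene's constitutive coding sequence and per library size, in uniquely mapping reads, and is used throughout as the level of an mRNA.

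Poly(A)+ RNA of ventricles from 15 FVB mice aged 14 to 16 weeks had been sequenced. The 12 induced mice (MHCrtTA/TRECUGBP2) carried a reverse tetracycline transactivator under the Myh6 promoter and a Tet-inducible, FLAG-tagged human CELF2, an RNA-binding protein that controls splicing and mRNA stability, and received doxycycline in their food for 12 h, 24 h, 72 h or 7 d, with 3 mice at each time. The 3 control mice had MHCrtTA without the CELF2 transgene and were fed doxycycline for 72 h. The transactivator and doxycycline were thus common to all 5 groups, the length of doxycycline differed from control at 12 h, 24 h and 7 d, and each time point was set against the same 3 control hearts.

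The Myh6 promoter is active in cardiomyocytes, so the endothelial genes were read in whole ventricle from cells that the transgene does not target. In such bulk tissue, fewer endothelial cells and less RNA per cell cannot be told apart. Every value is a level relative to the reads of the whole library.

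Endothelial cells are held together by junctions that contain VE-cadherin (Cdh5) and PECAM-1 (Pecam1). They respond to vascular endothelial growth factor (VEGF) through the receptors KDR and FLT1, of which KDR carries most of the growth signal and FLT1 binds VEGF tightly but signals weakly, and to angiopoietins through TEK, with TIE1 as a partner receptor. Endoglin (Eng) is a co-receptor for ligands of the BMP and TGF-beta family, von Willebrand factor (Vwf) is a clotting protein stored in endothelial cells, and ACE on the endothelial surface converts angiotensin I to angiotensin II. Many endothelial genes are known to be controlled by ETS transcription factors, among others.

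The starts of Flt1, Kdr and Ace are shown because these were the 3 genes with the smallest p in the test for any difference among the groups. RefSeq promoter windows were found for 6 of the 9 genes (Kdr, Flt1, Tek, Tie1, Eng and Ace), and the 250 bases before each start occurred once in the mm9 chromosome searched. Ace had 2 such windows, and the first is shown. Capitals mark 5 motifs searched on both strands as exact matches. They are GGAAGT, a form of the site bound by ETS factors (ACTTCC on the other strand), and TGACGTCA, the cyclic AMP response element. The others are CACGTG, an E-box, GGGCGG, the GC box (CCGCCC on the other strand), and TATAAA, the TATA box (TTTATA on the other strand). Other forms of an ETS site, such as a shorter GGAA, were not searched.
Flt1: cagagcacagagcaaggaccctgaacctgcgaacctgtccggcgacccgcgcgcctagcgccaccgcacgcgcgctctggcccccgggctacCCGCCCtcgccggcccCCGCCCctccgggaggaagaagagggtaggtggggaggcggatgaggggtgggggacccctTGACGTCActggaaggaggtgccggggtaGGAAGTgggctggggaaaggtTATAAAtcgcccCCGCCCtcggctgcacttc
Kdr: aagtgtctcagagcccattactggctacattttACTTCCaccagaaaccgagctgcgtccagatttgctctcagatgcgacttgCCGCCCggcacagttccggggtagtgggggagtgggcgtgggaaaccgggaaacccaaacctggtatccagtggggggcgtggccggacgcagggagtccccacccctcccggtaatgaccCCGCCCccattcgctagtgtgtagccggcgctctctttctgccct
Ace: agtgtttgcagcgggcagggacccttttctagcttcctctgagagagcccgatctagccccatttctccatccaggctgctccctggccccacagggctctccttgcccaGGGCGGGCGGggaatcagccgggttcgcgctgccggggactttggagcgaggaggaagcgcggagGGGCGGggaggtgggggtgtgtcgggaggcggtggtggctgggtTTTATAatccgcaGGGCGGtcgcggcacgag
The Flt1 window lies at chr5:148537588-148537837 on the minus strand, the Kdr window at chr5:76374481-76374730 on the minus strand and the Ace window at chr11:105829012-105829261 on the plus strand. In the Ace window, a pair of GC boxes overlap and are written as 1 run of capitals.

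The Flt1 window held 1 GGAAGT match, 1 cyclic AMP response element, 3 GC boxes and a TATA box that began 31 bases before the start. The cyclic AMP response element began 81 bases before the start and was absent from the windows of the other 5 genes, and 1.55% of 32851 windows of the same length in the table hold it. The Kdr window held 1 GGAAGT match and 2 GC boxes and no TATA box. The Ace window held 4 GC boxes and a TATA box that began 31 bases before the start, and no GGAAGT match. GGAAGT was found in 4 of the 6 genes (Eng, Flt1, Kdr and Tie1), against 19.7% of all windows. GC boxes were found in 3 of 6 (32.7% of all windows), the TATA box in 2 of 6 (12.4%) and the E-box in 0 of 6 (6.02%). A second Ace window, at chr11:105836253-105836502, held none of these motifs. It was left out of the counts of genes, while the shares of all windows run over every start listed. The GC content was 70.4% in the Flt1 window, 61.6% in the Kdr window and 67.2% in the Ace window, against 53.2% ± 11.6 (SD) over all windows. A match describes these letters and is no evidence of binding.

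A few facts of the whole series touch the results. Celf2 mRNA averaged 123, 150, 230 and 324 RPKM at 12 h, 24 h, 72 h and 7 d, against 9.82 RPKM in control hearts. These are values of the mouse gene, from reads mapped to mm9, while the transgene was human CELF2. Mouse and transgene mRNA cannot be told apart in them, and they are no direct measure of the transgene. Read totals are unknown, and between 1463 and 1977 genes were listed at 0 in a heart. The sample titles carry a code with 3 values, called A, B and C here, whose meaning is not given. Code A held 6 hearts, at least 1 from each group. Code B held 6 hearts from the 12 h, 24 h and control groups, and code C held 3 hearts from the 72 h and 7 d groups. Y-linked mRNA (Ddx3y, Eif2s3y, Uty and Kdm5d) summed to between 52.34 and 77.83 RPKM in 9 hearts and to between 0.02 and 0.06 RPKM in the other 6. It was present in 0 of 3 hearts after 12 h, 2 of 3 after 24 h, 3 of 3 after 72 h and 3 of 3 after 7 d, against 1 of 3 control hearts.

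All 9 endothelial mRNAs were detected in every heart. Averaged over the 15 hearts, Eng was highest at 88.8 RPKM, followed by Cdh5 at 60.2, Pecam1 at 53.2, Kdr at 36.6, Tie1 at 24.6, Flt1 at 18.2, Ace at 17.7, Tek at 15.6 and Vwf at 9.87 RPKM. Between neighbours in this order, Eng lay above Cdh5 in 15 of 15 hearts, Pecam1 above Kdr in 15 of 15 and Tek above Vwf in 15 of 15. Cdh5 exceeded Pecam1 in 12 hearts, Kdr exceeded Tie1 in 13 and Tie1 exceeded Flt1 in 13. The neighbours Flt1 and Ace were not ordered, since Flt1 was above Ace in 8 of 15 hearts, nor were Ace and Tek, with Ace above Tek in 9 of 15. Spread over hearts also differed: the highest heart was 1.39 times the lowest for Tek and 1.40 times for Pecam1, but 2.02 times for Vwf, 2.11 times for Cdh5 and 3.02 times for Ace. The level of each of the 9 mRNAs in each heart is plotted by group.

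**Figure D1:**
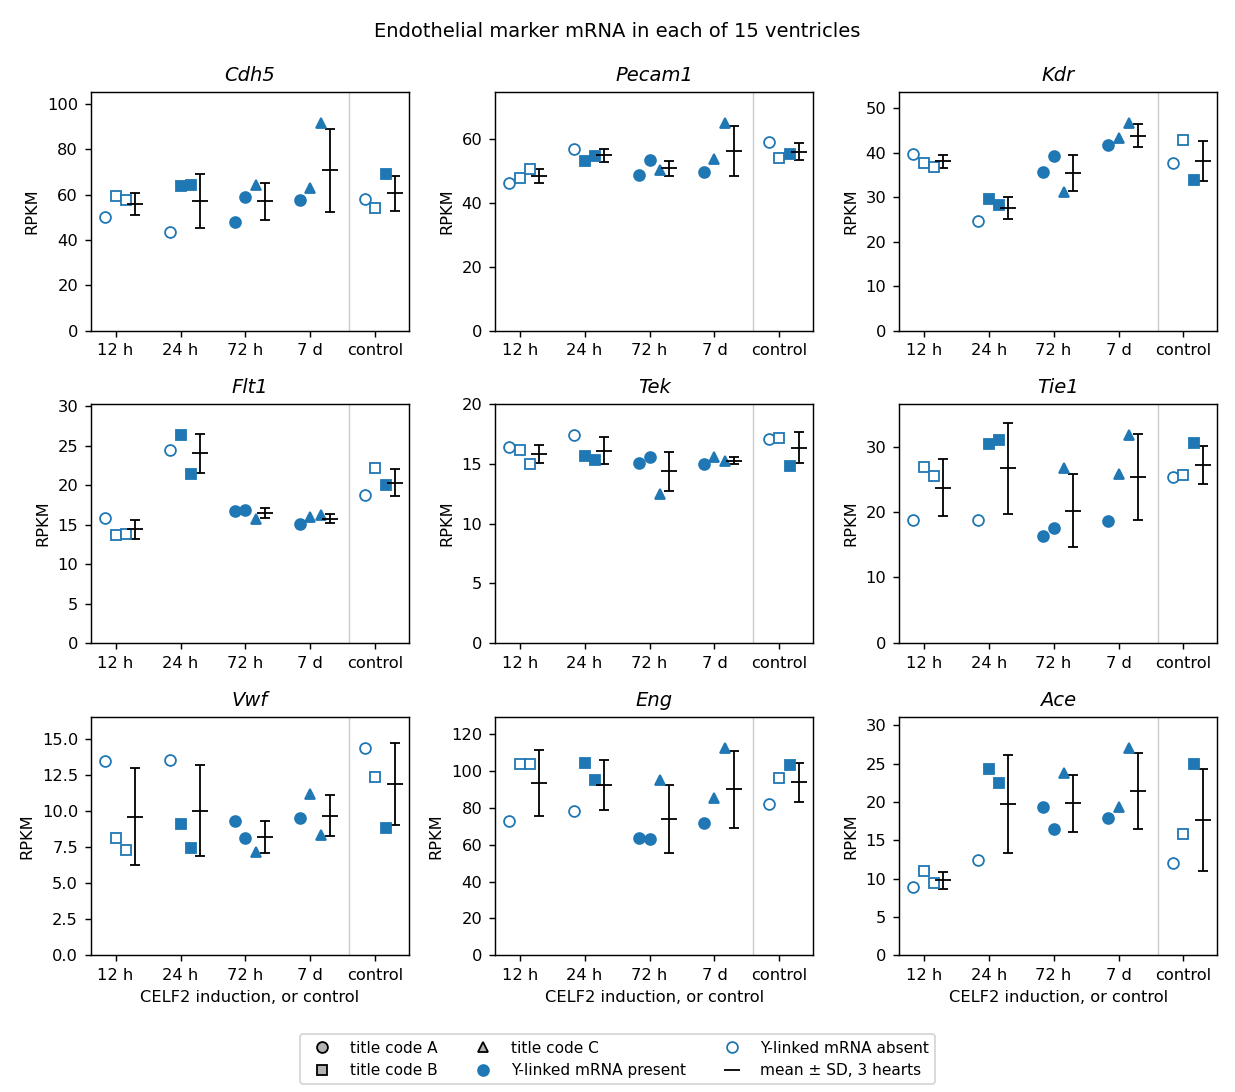
Level of each of the 9 endothelial mRNAs (y axes, RPKM) in each heart at 12 h, 24 h, 72 h and 7 d with CELF2 induced and in control hearts (x axes). Points are hearts, their shape the title code and their fill the presence of Y-linked mRNA, with the mean ± SD (n = 3) drawn as bars. The 3 hearts at 24 h have the lowest Kdr values, between 24.72 and 29.62 RPKM, and Flt1 values between 21.4 and 26.3 RPKM.

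Flt1 and Kdr, the VEGF receptors, differed among the 5 groups, and at 24 h Flt1 had its highest mean and Kdr its lowest. Flt1 was lower after 7 d than in control hearts and higher after 24 h than at either 12 h or 72 h, while no single comparison of Kdr passed. In limma's F-test for any difference among the 5 groups, these were the 2 of 9 endothelial genes that passed (adjusted p = 0.00166 for Flt1 and 0.0111 for Kdr), while 11.7% of all tested genes passed.

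Flt1 lies on mm9 at chr5:148373180-148537587 on the minus strand, and no other annotated gene shares its exons. Constitutive coding sequence does not separate its soluble from its membrane form. Flt1 mRNA measured 15.82, 13.63 and 13.77 RPKM after 12 h, 24.47, 26.3 and 21.4 RPKM after 24 h, 16.71, 16.88 and 15.76 RPKM after 72 h and 15.12, 15.95 and 16.15 RPKM after 7 d, against 18.8, 22.11 and 20.04 RPKM in control hearts. All hearts at 12 h, 72 h and 7 d lay below all control hearts, and the 24 h hearts overlapped with control.

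At 7 d, Flt1 fell to 0.782 of the control level (log2 change -0.36, SE 0.10, limma adjusted p = 0.0406). It was the single endothelial gene called in that comparison, in which 5.83% of all tested genes were called higher and 4.16% lower. This call was lost when any 1 of the 6 hearts was left out (adjusted p between 0.0511 and 0.171), and with the title code (0.0738) or Y-linked mRNA (0.191) as a covariate, although the log2 change was then -0.37 and -0.33. At 12 h the estimate was larger, at 0.716 of the control level (log2 change -0.48, SE 0.10, 95% interval -0.70 to -0.26), but missed the threshold (adjusted p = 0.0676). It passed without a filter on low values (adjusted p = 0.0481), with the title code in the model (0.0133), and without heart 1 of the 12 h group (0.0322). At 72 h the Flt1 level was 0.816 of control (log2 change -0.29, SE 0.10, adjusted p = 0.228), and at 24 h it was 1.18 of control (log2 change 0.24, SE 0.10, adjusted p = 0.506).

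Among induced hearts, Flt1 rose at 24 h to 1.65 times its 12 h level (log2 change 0.72, SE 0.10, limma adjusted p = 0.00367). The 3 hearts at 24 h lay above all 3 at 12 h, and the call held without any 1 of the 6 hearts (adjusted p between 0.00400 and 0.0319). It was lost in a fit of the compared groups alone (adjusted p = 0.106). Within code A the difference was 0.61 on the log2 scale (1 heart in each group), and within code B it was 0.77 (2 hearts in each group). At 72 h, Flt1 fell to 0.692 of its 24 h level (log2 change -0.53, SE 0.10, adjusted p = 0.0308), a call lost without any 1 of those 6 hearts (adjusted p between 0.0506 and 0.129) and with Y-linked mRNA in the model (-0.52 on the log2 scale, adjusted p = 0.0757).

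Kdr, also on chromosome 5 of mm9 at chr5:76328852-76374483 on the minus strand, measured 39.57, 37.73 and 36.73 RPKM after 12 h, 24.72, 29.62 and 28.18 RPKM after 24 h, 35.68, 39.24 and 31.25 RPKM after 72 h and 41.68, 43.2 and 46.62 RPKM after 7 d, against 37.56, 42.87 and 33.95 RPKM in control hearts. The 24 h hearts were the 3 lowest of all 15. The Kdr level at 24 h was 0.726 of control (log2 change -0.46, SE 0.11, limma adjusted p = 0.176) and 0.726 of the 12 h level (log2 change -0.46, SE 0.11, adjusted p = 0.106), and neither passed the threshold. With the title code as a covariate both passed (adjusted p = 0.0332 against control and 0.0352 against 12 h). At 7 d Kdr averaged 43.8 ± 2.5 RPKM (SD, n = 3), against 38.1 ± 4.5 RPKM in control hearts (log2 change 0.20, 95% interval -0.03 to 0.44, adjusted p = 0.296), and the groups overlapped. The F-test for Kdr missed the threshold under upper-quartile scaling between hearts (adjusted p = 0.0618).

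Because both receptors bind VEGF, the level of Flt1 was divided by that of Kdr within each heart. The ratio was 0.400, 0.361 and 0.375 after 12 h, 0.990, 0.888 and 0.759 after 24 h, 0.468, 0.430 and 0.504 after 72 h and 0.363, 0.369 and 0.346 after 7 d, against 0.501, 0.516 and 0.590 in control hearts. The 24 h hearts lay above every other heart, the 12 h and 7 d hearts lay below every control heart, and the 72 h hearts overlapped with control. The mean log2 ratio differed from control by -0.48 after 12 h, 0.70 after 24 h and -0.56 after 7 d, each with an exact two-sided permutation p of 0.1, the smallest that 3 hearts against 3 allow. At 72 h the difference was -0.19 (exact permutation p = 0.2). Across the 15 hearts, Flt1 and Kdr had a Pearson r of -0.59 (-0.54 after subtracting the mean of each title code), given as a description, since the hearts share groups and library scaling.

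A pair of circadian clock genes, chosen after their values were seen, is given beside Flt1 and Kdr. Per2, a clock repressor, averaged 1.35, 10.04, 5.26 and 2.41 RPKM at 12 h, 24 h, 72 h and 7 d, against 7.68 RPKM in control hearts. Arntl, a clock activator whose mRNA peaks opposite to Per2, averaged 6.45, 0.943, 1.12 and 5.09 RPKM in the same order, against 0.623 RPKM in control hearts. The 5 group means of Flt1 and Per2 had the same order, with 24 h highest, then control, 72 h, 7 d and 12 h. Over the 15 hearts, Pearson r with Per2 was 0.84 for Flt1 and -0.62 for Kdr, and r with Arntl was -0.74 for Flt1 and 0.50 for Kdr, as a description. The time of day of harvest is not given, and the time of day and the length of CELF2 induction cannot be told apart.

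**Figure D2:**
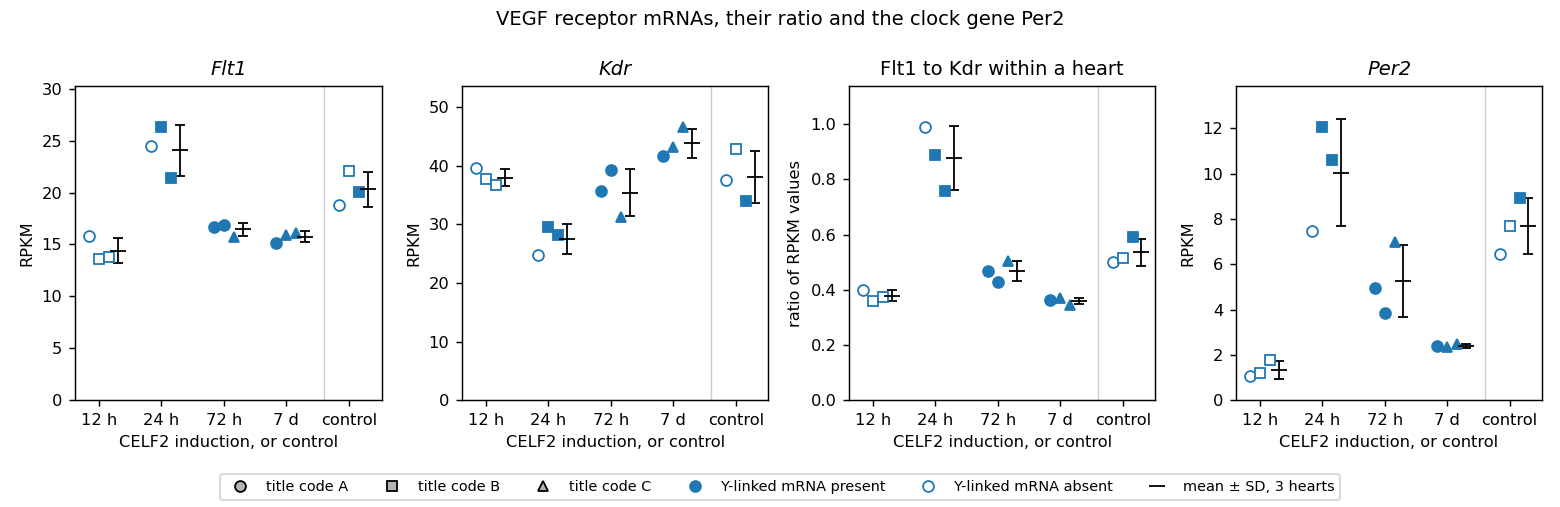
Flt1 and Kdr (RPKM), the ratio of Flt1 to Kdr within each heart, and Per2 (RPKM), each on the y axis, at 12 h, 24 h, 72 h and 7 d with CELF2 induced and in control hearts (x axes). Points are hearts, their shape the title code and their fill the presence of Y-linked mRNA, with the mean ± SD (n = 3) drawn as bars. The ratio lies between 0.759 and 0.990 at 24 h and between 0.501 and 0.590 in control hearts.

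Tek and Tie1, the angiopoietin receptor and its partner, did not pass the test in any comparison. Tek, on mm9 at chr4:94405980-94541667 on the plus strand, had the smallest spread of the 9 mRNAs. It measured 16.43, 16.18 and 14.98 RPKM after 12 h, 17.41, 15.66 and 15.31 RPKM after 24 h, 15.09, 15.59 and 12.49 RPKM after 72 h and 15.02, 15.61 and 15.25 RPKM after 7 d, against 17.14, 17.16 and 14.87 RPKM in control hearts. Every time point overlapped with control. The 95% intervals of its log2 changes against control ran from -0.27 to 0.18 after 12 h, -0.24 to 0.20 after 24 h, -0.41 to 0.04 after 72 h and -0.32 to 0.13 after 7 d.

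Tie1, on mm9 at chr4:118143796-118162666 on the minus strand, measured 18.78, 26.94 and 25.49 RPKM after 12 h, 18.71, 30.33 and 31.04 RPKM after 24 h, 16.39, 17.59 and 26.67 RPKM after 72 h and 18.62, 25.74 and 31.7 RPKM after 7 d, against 25.28, 25.72 and 30.56 RPKM in control hearts. The lowest level was at 72 h, at 0.734 of control (log2 change -0.45, SE 0.24, limma adjusted p = 0.431). The ratio of Tek to Tie1 within a heart averaged 0.688, 0.647, 0.758 and 0.631 at 12 h, 24 h, 72 h and 7 d, against 0.611 in control hearts, and every time point overlapped with control (exact two-sided permutation p between 0.6 and 1).

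Eng, the BMP and TGF-beta co-receptor, lies on mm9 at chr2:32502115-32538189 on the plus strand. In the annotation some of its exons overlap Ak1 on the same strand and Fpgs on the opposite strand. Whether the overlaps reach the coding sequence that was counted was not checked. If so, part of the reads could belong to either. Eng measured 72.75, 104.14 and 103.61 RPKM after 12 h, 78.1, 104.67 and 94.97 RPKM after 24 h, 63.55, 62.96 and 95.16 RPKM after 72 h and 72.03, 85.55 and 112.75 RPKM after 7 d, against 82.28, 96.37 and 103.15 RPKM in control hearts. All groups overlapped with control, and no comparison passed (limma adjusted p between 0.446 and 0.999).

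Eng and Tie1 were lower in the hearts of code A. Eng ranged from 62.96 to 82.28 RPKM in the 6 hearts of code A and from 85.55 to 112.75 RPKM in the other 9, with no overlap. Tie1 ranged from 16.39 to 25.28 RPKM in code A and from 25.49 to 31.7 RPKM in the other 9, again with no overlap. These were 2 of the 9 genes, and 7.85% of all tested genes did not overlap between the same hearts. The low hearts at 72 h are the 2 of code A. With the title code as a covariate, neither gene was called in any comparison. Across the 15 hearts, Eng and Tie1 had the highest correlation of the 36 pairs (Pearson r 0.93), and r was 0.69 after subtracting the mean of each code.

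Cdh5, on mm9 at chr8:106625525-106668402 on the plus strand, measured 50.3, 59.3 and 57.76 RPKM after 12 h, 43.34, 63.93 and 64.17 RPKM after 24 h, 48.12, 58.88 and 64.28 RPKM after 72 h and 57.47, 63.02 and 91.58 RPKM after 7 d, against 58.07, 54.2 and 69.31 RPKM in control hearts. Every time point overlapped with control, and 1 heart at 7 d stood above all others. At 7 d the log2 change against control was 0.20 (SE 0.19, limma adjusted p = 0.574).

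Pecam1, on mm9 at chr11:106515531-106611942 on the minus strand, measured 46.22, 47.87 and 50.55 RPKM after 12 h, 56.92, 52.91 and 54.54 RPKM after 24 h, 48.76, 53.3 and 50.08 RPKM after 72 h and 49.62, 53.79 and 64.89 RPKM after 7 d, against 59.02, 53.85 and 55.11 RPKM in control hearts. The hearts at 12 h and 72 h lay below all control hearts. These differences were small, at 0.862 of control at 12 h (log2 change -0.21, SE 0.10, limma adjusted p = 0.397) and 0.907 at 72 h (log2 change -0.14, SE 0.10, adjusted p = 0.564), and neither passed.

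Vwf, on mm9 at chr6:125496792-125636697 on the plus strand, measured 13.45, 8.09 and 7.28 RPKM after 12 h, 13.53, 9.07 and 7.42 RPKM after 24 h, 9.33, 8.11 and 7.13 RPKM after 72 h and 9.5, 11.2 and 8.34 RPKM after 7 d, against 14.38, 12.37 and 8.79 RPKM in control hearts. Every time point overlapped with control, and the level at 72 h was 0.713 of control (log2 change -0.49, SE 0.25, limma adjusted p = 0.403). With the title code as a covariate the 72 h difference was -0.87 on the log2 scale and passed (adjusted p = 0.0197). In that fit 72 h hearts of code C, a code with no control heart, enter through the estimate of the code, and the value within code A was -0.69 (2 hearts against 1 control heart). With Y-linked mRNA added to the title code, the 72 h difference of Vwf did not pass. Platelets also carry Vwf mRNA: the platelet marker Pf4 averaged 13.4 RPKM at 72 h, against 15.5 RPKM in control hearts, and the part of platelets in the Vwf values was not tested. Vwf and Tek were the pair with the next highest correlation over hearts (Pearson r 0.75, and 0.79 after subtracting code means).

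Ace, on mm9 at chr11:105829259-105851278 on the plus strand, shares exon sequence with the noncoding Gm11651 on the opposite strand. Sequencing was strand-specific, but whether counting used strand is not stated. Whether the overlap reaches coding sequence was not checked. Ace measured 8.96, 11.02 and 9.37 RPKM after 12 h, 12.48, 24.33 and 22.4 RPKM after 24 h, 19.33, 16.42 and 23.8 RPKM after 72 h and 17.91, 19.34 and 27.07 RPKM after 7 d, against 12.08, 15.76 and 24.97 RPKM in control hearts. The 12 h hearts lay below every other heart. At 7 d, Ace rose to 2.11 times its 12 h level (log2 change 1.08, SE 0.27, limma adjusted p = 0.0161). The call was lost without heart 3 of the 12 h group (adjusted p = 0.0503) or heart 3 of the 7 d group (0.0732). Against control, the Ace level was 0.591 after 12 h (log2 change -0.76, SE 0.27, adjusted p = 0.275), 1.12 after 24 h, 1.16 after 72 h and 1.25 after 7 d (adjusted p = 0.528), and none passed. With the title code as a covariate the 12 h difference passed (adjusted p = 0.0269). At 24 h the Ace level was 1.90 times that at 12 h (log2 change 0.93, SE 0.27, adjusted p = 0.240), which, of the alternatives run, passed only with the title code as a covariate (0.0170). In the F-test for any difference among the groups Ace missed the threshold (adjusted p = 0.0635).

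Ace was higher in every heart with Y-linked mRNA than in any without. Its level was between 16.42 and 27.07 RPKM in the 9 hearts with Y-linked mRNA and between 8.96 and 15.76 RPKM in the 6 without, and 0.398% of all tested genes did not overlap between the same hearts. This separation over all hearts fixes the order inside the groups that had both kinds, whose values are therefore no separate evidence. At 24 h the hearts with Y-linked mRNA had 24.33 and 22.4 RPKM and the heart without had 12.48 RPKM. In control the values were 24.97 RPKM with and 12.08 and 15.76 RPKM without. As 0 of 3 hearts at 12 h and 3 of 3 at 7 d had Y-linked mRNA, the length of CELF2 induction and Y-linked mRNA cannot be told apart in the comparison of 7 d with 12 h. With Y-linked mRNA as a covariate that difference was 0.22 on the log2 scale (adjusted p = 0.674). The slope of Ace on Y-linked mRNA in the fit with the 5 groups was 0.12 log2 units per log2 unit (SE 0.03, unadjusted p = 0.000632). It did not pass over all genes (limma adjusted p = 0.351), where 0.133% of genes were called, and it was computed after the values had been seen. The other 8 genes had adjusted p of at least 0.694 for this slope.

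**Figure D3:**
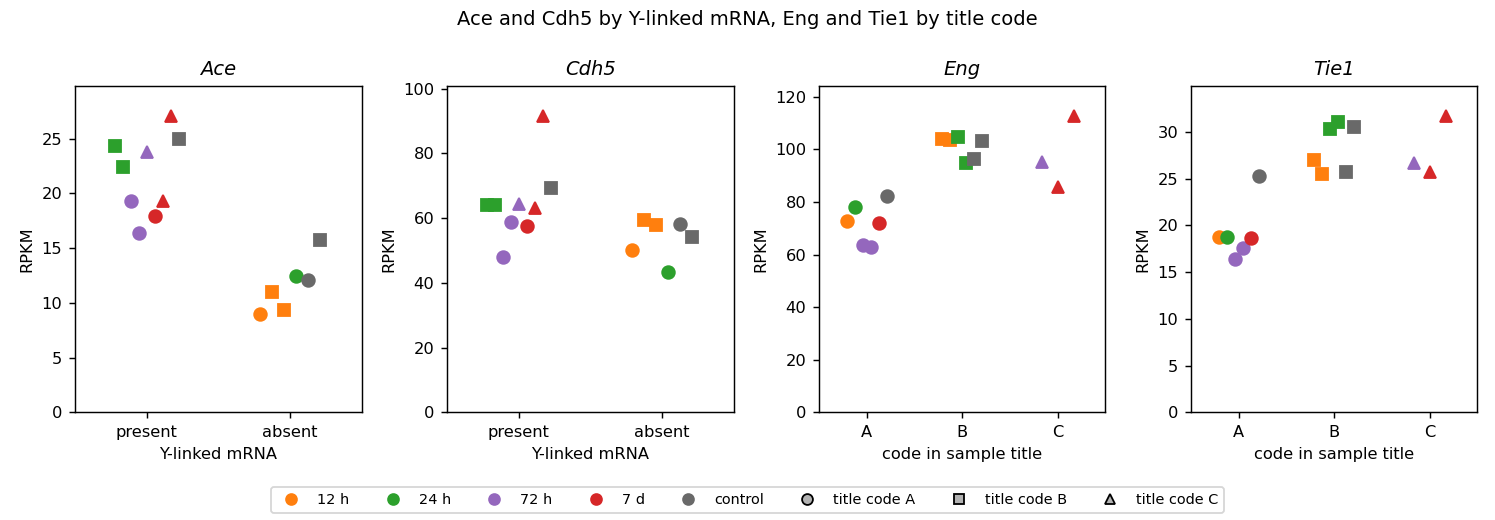
Ace and Cdh5 (RPKM, y axes) by presence or absence of Y-linked mRNA, and Eng and Tie1 (RPKM) by title code (x axes). Each point is a heart, colours give the time of CELF2 induction or control, and shapes give the title code. Ace does not overlap between hearts with Y-linked mRNA (16.42 to 27.07 RPKM) and without (8.96 to 15.76 RPKM), and Eng does not overlap between code A (62.96 to 82.28 RPKM) and the other codes.

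Counted over the 9 genes, the comparisons with control gave few calls, and the counts of non-overlapping genes are read here against the share of all tested genes that did the same. At 12 h, 0 of 9 passed in limma, against 0.104% of all genes called higher and 0.284% lower. In that comparison 3 of 9 (Pecam1, Flt1 and Ace) lay below all control hearts, where 16.5% of all genes did not overlap, and 3 of 9 had an unadjusted p under 0.05. At 24 h, 0 of 9 passed (0.0379% of all genes higher and 0.0568% lower), 1 of 9 (Kdr) did not overlap with control (17.3% of all genes) and 2 of 9 had an unadjusted p under 0.05. At 72 h, 0 of 9 passed (0.237% higher and 0.36% lower), 2 of 9 (Pecam1 and Flt1) did not overlap (18.1%) and 1 of 9 had an unadjusted p under 0.05. At 7 d, 1 of 9 passed and 1 of 9 did not overlap, in both cases Flt1, where 31.7% of all genes did not overlap.

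Between induced groups, 24 h against 12 h gave 1 call of 9 (Flt1, higher), with 0.341% of all genes called higher and 0.218% lower, and 4 of 9 genes (Pecam1, Kdr, Flt1 and Ace) did not overlap, where 8.8% of all genes did not. For 72 h against 24 h, 1 of 9 passed (Flt1, lower; 0.322% of all genes higher and 0.332% lower) and 2 of 9 (Kdr and Flt1) did not overlap (14.8%). For 7 d against 72 h, 0 of 9 passed in limma (1.74% higher and 0.777% lower), 1 of 9 had an unadjusted p under 0.05, and 1 of 9 (Kdr) did not overlap (20.5%). For 7 d against 12 h, 1 of 9 passed (Ace, higher; 11.8% higher and 3.88% lower) and 2 of 9 (Kdr and Ace) did not overlap (30.4%). The shares of all genes called in that comparison depended on the scaling. Of 10557 tested genes, 1241 were called higher and 410 lower with RPKM as deposited, but 758 and 791 under median-ratio scaling between hearts.

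**Figure D4:**
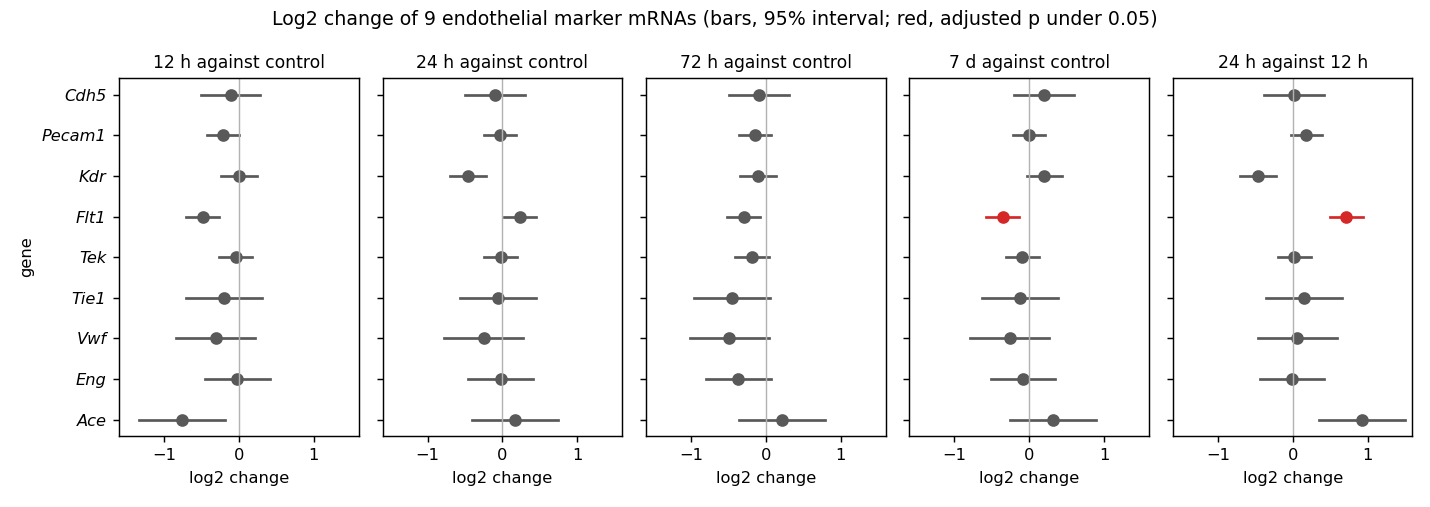
Log2 change of the 9 endothelial mRNAs (y axis, genes) at 12 h, 24 h, 72 h and 7 d against control and at 24 h against 12 h (panels; x axes, log2 change on the log2(RPKM + 0.5) scale). Points are limma estimates, bars are 95% intervals, and red marks an adjusted p under 0.05. Flt1 is red at 7 d against control (-0.36) and at 24 h against 12 h (0.72), and most other intervals include 0.

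The median log2 change of the 9 genes against control was -0.20 after 12 h, where that of all tested genes was -0.10, -0.03 after 24 h (all genes -0.10), -0.19 after 72 h (all genes -0.08) and -0.08 after 7 d (all genes 0.03). The number of the 9 with a negative log2 change was 8 after 12 h, 7 after 24 h, 8 after 72 h and 6 after 7 d, and these comparisons share their controls. Median-ratio scaling between hearts removed the shift of all genes and left the median of the 9 at -0.10 after 12 h, 0.08 after 24 h, -0.11 after 72 h and -0.10 after 7 d, so that the direction after 24 h depended on the scaling.

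Other endothelial genes were counted from lists of markers and pathway partners. Of 29 tested pan-endothelial genes outside the 9, 0 passed at 12 h, 24 h or 72 h. At 7 d, 1 rose and 1 fell, where 5.83% of all tested genes rose and 4.16% fell. Aplnr, the apelin receptor, averaged 30.4 ± 8.0 RPKM at 7 d, against 16.3 ± 2.8 RPKM in control hearts (SD, n = 3 each; log2 change 0.86, limma adjusted p = 0.0230), and S1pr1, a sphingosine 1-phosphate receptor that guards vessel integrity, averaged 18.6 ± 3.2 RPKM, against 31.2 ± 3.7 RPKM in control hearts (log2 change -0.73, adjusted p = 0.0319). At 7 d against 12 h, 2 of 29 rose (Aplnr and Lmo2) and 2 fell (S1pr1 and Klf2), where 11.8% of all tested genes rose and 3.88% fell. Klf2, a flow-responsive transcription factor, averaged 12.6 ± 4.4 RPKM at 7 d and 42.2 ± 24.4 RPKM at 12 h (SD, n = 3 each; log2 change -1.55, adjusted p = 0.0358). Against control, the Aplnr call was lost without heart 2 or 3 of the 7 d group or heart 1 or 2 of the control group (adjusted p between 0.0518 and 0.110), and that of S1pr1 without any 1 of 5 hearts, all but heart 3 of the 7 d group (adjusted p between 0.0614 and 0.134). Against 12 h, Aplnr was called without any 1 heart, while Lmo2 was lost without heart 2 of the 7 d group (adjusted p = 0.0626), Klf2 without any 1 of 5 hearts, all but heart 1 of the 12 h group (0.0533 to 0.151), and S1pr1 without heart 2 or 3 of the 12 h group or heart 1 or 2 of the 7 d group (0.0517 to 0.0854). With Y-linked mRNA as a covariate none of these calls on Aplnr, S1pr1, Lmo2 and Klf2 passed (adjusted p between 0.148 and 0.287), while the log2 change was -0.71 for S1pr1 and 0.63 for Aplnr against control and -1.99 for Klf2 against 12 h. With the title code added as well, it was -0.37 for S1pr1 and 0.06 for Aplnr against control. Against 12 h it was then 0.09 for Aplnr, 0.0091 for Lmo2, -0.78 for Klf2 and -0.28 for S1pr1. With the title code alone, the calls against 12 h were lost for Aplnr (adjusted p = 0.0559) and Lmo2 (0.0945) and held for S1pr1 (0.0275) and Klf2 (0.00845). The median log2 change of the 29 genes against control was -0.17, -0.12, -0.27 and -0.10 at 12 h, 24 h, 72 h and 7 d.

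Among the 20 co-receptors and signalling partners of these receptors, 1 of 20 passed against control at 12 h and 0 of 20 at the other times. Nrp2, a co-receptor for VEGF family members, averaged 5.33 ± 1.31 RPKM at 12 h, against 10.9 ± 1.2 RPKM in control hearts (SD, n = 3 each; log2 change -0.98, limma adjusted p = 0.0157). It averaged 15.1 ± 1.5 RPKM at 7 d, and 7 d exceeded 12 h (log2 change 1.44, adjusted p = 8.98e-05). The 12 h call against control was lost without any 1 of 5 hearts, all but heart 1 of the 12 h group (adjusted p between 0.0546 and 0.108), in a fit of the compared groups alone (0.133) and with Y-linked mRNA in the model (-0.92 on the log2 scale, adjusted p = 0.0510). That call held with the title code (-0.98, adjusted p = 0.00433) and with Y-linked mRNA and the title code together (-0.83, adjusted p = 0.00937). The call of 7 d against 12 h held without any 1 heart and with Y-linked mRNA (log2 change 1.24, adjusted p = 0.0192), and was lost with Y-linked mRNA and the title code together (0.74, adjusted p = 0.294). In that comparison 3 of 20 rose, where 11.8% of all tested genes did. The other 2 were Ctnnb1 and Ctnnd1, the junction proteins beta-catenin and p120-catenin, with log2 changes of 0.36 (adjusted p = 0.0467) and 0.39 (0.0263). Neither passed with the title code (0.493 and 0.223) or with Y-linked mRNA (0.221 and 0.233) as a covariate.

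Of the 9 tested VEGF, angiopoietin and BMP ligands, 0 passed against control at any time. Vegfb, the most abundant and a ligand of FLT1 but not of KDR, averaged 181, 165, 171 and 173 RPKM at 12 h, 24 h, 72 h and 7 d, against 167 RPKM in control hearts. Tgfb1, a ligand whose receptors work with endoglin, averaged 12.9, 11.3, 12.0 and 13.8 RPKM, against 13.7 RPKM in control hearts. At 7 d against 12 h, 2 of 9 fell in limma, where 3.88% of all tested genes fell: Angpt1, the activating ligand of TEK, with 2.48 RPKM after 7 d and 5.58 RPKM after 12 h (log2 change -0.99, adjusted p = 0.00271), and Vegfc, a ligand of lymphatic VEGF receptors, with 3.28 RPKM after 7 d and 4.67 RPKM after 12 h (log2 change -0.46, adjusted p = 0.0300). The Angpt1 call held without any 1 heart, and that of Vegfc was lost without heart 2 or 3 of the 12 h group or heart 1 or 2 of the 7 d group (adjusted p between 0.0680 and 0.141). With Y-linked mRNA as a covariate neither passed (log2 change -0.93 and adjusted p = 0.0957 for Angpt1, -0.65 and 0.0879 for Vegfc). With the title code as a covariate Angpt1 passed (-1.14, adjusted p = 0.00168) and Vegfc did not (-0.47, 0.0863). With both covariates Angpt1 passed (-1.62, adjusted p = 0.01985) and Vegfc did not (-0.86, 0.1895). Vegfa was not analysed here.

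Of the 5 tested renin-angiotensin genes, the pathway of Ace, 1 passed against control, at 7 d, where 4.16% of all tested genes fell. Mas1, a receptor in the pathway's counter-regulatory arm, averaged 0.827 ± 0.150 RPKM at 7 d, against 1.78 ± 0.42 RPKM in control hearts (SD, n = 3 each; log2 change -0.77, limma adjusted p = 0.0146), a low level in both groups. The call was lost without heart 1 of the 7 d group or heart 1 or 2 of the control group (adjusted p between 0.0511 and 0.0776), with the title code (log2 change -0.69, adjusted p = 0.0585), with Y-linked mRNA (-0.67, adjusted p = 0.124) and with both as covariates (-0.18, adjusted p = 0.783). Agtr1a, the main angiotensin II receptor, averaged 19.9, 14.7, 18.1 and 17.2 RPKM at 12 h, 24 h, 72 h and 7 d, against 19.2 RPKM in control hearts, and did not pass.

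Genes that mark particular endothelial beds were counted at 7 d against control, where 5.83% of all tested genes rose and 4.16% fell. Of 8 cardiac capillary genes, 1 fell, Rgcc, a regulator of the cell cycle and angiogenesis (14.1 ± 2.2 RPKM at 7 d, against 33.1 ± 7.0 RPKM in control hearts, log2 change -1.19, limma adjusted p = 0.00615, SD, n = 3 each). Of 5 lymphatic markers, 1 fell, Lyve1, a hyaluronan receptor that some macrophages also carry (2.84 ± 0.20 RPKM, against 4.77 ± 0.43 RPKM in control hearts, log2 change -0.65, adjusted p = 0.00713). Of 5 endocardial markers, a list that includes Vwf, 1 fell, Cytl1, a secreted protein (6.82 ± 1.23 RPKM, against 13.0 ± 1.5 RPKM in control hearts, log2 change -0.89, adjusted p = 0.0131). Of 8 endothelial activation and haemostasis genes, 1 rose, Ccl2, a chemokine that attracts monocytes (3.36 ± 0.82 RPKM, against 1.47 ± 0.14 RPKM in control hearts, log2 change 0.95, adjusted p = 0.0213). The calls of Rgcc and Lyve1 held without any 1 heart. That of Cytl1 was lost without heart 3 of the 7 d group (adjusted p = 0.0624) or heart 2 of the control group (0.0663), and that of Ccl2 without heart 1 of the 7 d group or heart 1 or 2 of the control group (0.0581 to 0.0844). With Y-linked mRNA as a covariate none of the 4 passed (adjusted p between 0.0644 and 0.109), with log2 changes of -1.10 for Rgcc, -0.63 for Lyve1, -0.85 for Cytl1 and 0.94 for Ccl2. With the title code as well, the log2 change was -0.19 for Cytl1 (adjusted p = 0.819) and 1.65 for Ccl2 (0.0253). These lists had 0 calls against control at 12 h, 24 h and 72 h.

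Markers of other cells in the ventricle are given as measured beside these counts. At 7 d, 3 of 8 cardiomyocyte markers passed, where 5.83% of all tested genes rose and 4.16% fell. Actc1 (cardiac actin) rose, and Myh6 (cardiac myosin) and Pln (phospholamban) fell. The 8 markers summed to between 39699 and 40999 RPKM at 7 d, against between 41009 and 43118 RPKM in control hearts. The Actc1 call held without any 1 heart, that of Myh6 was lost without any 1 of the 6 (adjusted p between 0.0529 and 0.0959), and that of Pln without heart 3 of the 7 d group or heart 2 or 3 of the control group (0.0532 to 0.0709). Myh6 was also lost without a filter (0.171), with quantile normalization (0.123) and with Y-linked mRNA (log2 change -0.38, adjusted p = 0.101). Pln was also lost with quantile normalization (0.167) and with the title code (log2 change -0.37, adjusted p = 0.0747). With both covariates none of the 3 passed, with log2 changes of 0.57 for Actc1, -0.41 for Myh6 and -0.61 for Pln. Of 8 fibroblast markers, 8 pericyte and smooth muscle markers, 8 macrophage markers, 3 platelet markers and 2 red blood cell markers tested, 0 passed against control at any time. The macrophage markers summed to between 117.81 and 160.92 RPKM at 7 d, against between 152.24 and 161.14 RPKM in control hearts. The 30 pan-endothelial genes outside the 9 summed to between 496.39 and 674.55 RPKM at 7 d, against between 595.96 and 638.67 RPKM in control hearts. None of these lists had a gene at 0 in every heart, and the part of cell composition in the results was not tested.

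**Figure D5:**
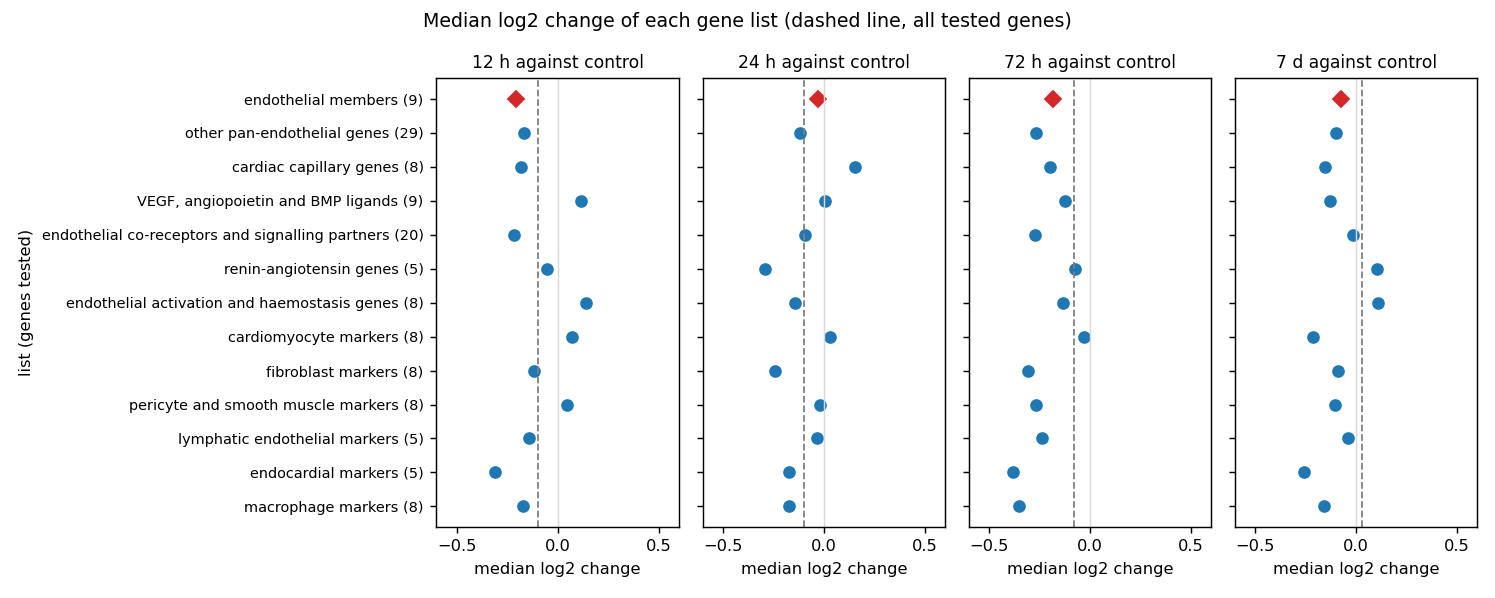
Median log2 change (x axes) of the 9 endothelial genes (red diamonds) and of 12 other gene lists (blue points; y axis, with the number of genes tested) at 12 h, 24 h, 72 h and 7 d against control, with the median of all tested genes as a dashed line. The 9 genes lie at -0.20, -0.03, -0.19 and -0.08 in the 4 panels, and all genes at -0.10, -0.10, -0.08 and 0.03.

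The genes most like the 9 were sought by the Pearson r, over the 15 hearts, between a gene and the mean of the standardised levels of the 9. The 10 highest were Flna, Pnpla6, Fgd5, Agrn, Vim, Stab1, Tmem50a, Capg, Tln1 and Sh3tc2, with r between 0.85 for Sh3tc2 and 0.93 for Flna, and between 0.80 and 0.93 after subtracting the mean of each title code. The 9 themselves differed widely in this measure, from 0.81 for Pecam1 and 0.73 for Tie1 to 0.18 for Kdr and 0.16 for Vwf, so that Kdr ranked 5974 and Vwf 6215 of the 10557 tested genes. Each of the 9 is part of the mean it was compared with, which raises its own r and rank, unlike those of other genes. The points of these correlations share groups and library scaling, and the values are a description.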

How the data were processed

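The authors mapped reads of 15 ventricle libraries to mm9 with Bowtie and TopHat (versions not given in the sources used here) and deposited RPKM values with 2 decimals, that is reads over the coding sequence common to all forms of a RefSeq gene, scaled by its length and by the uniquely mapped reads outside ribosomal and mitochondrial sequence. Library depth is unknown, so precision rests on the spread between hearts, each from a separate mouse, and 0 pairs of libraries were identical. Genes at low levels have coarse steps.

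Groups came from the labels. Induced hearts are also labelled with a Celf1 cassette, and the design text speaks of Celf1 in muscle. Both go against the titles, genotypes and methods and were not used. Doxycycline was 2 g/kg in the labels and methods, and a table of the study gives another dose.

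For each of the 8 comparisons, limma 3.58.1 (R 4.3.3) with a mean-variance trend was fitted to log2(RPKM + 0.5) of 10557 genes whose mean reached 1 RPKM, all 5 groups in 1 fit, with Benjamini-Hochberg adjustment over all tested genes and calls at an adjusted p under 0.05. Fold changes are on that scale and understate changes of low genes. Ratios of 2 genes were tested with exact two-sided permutation tests over hearts (Python 3.11.15, scipy 1.17.1). The fit was tested on simulated data.

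The 9 genes and all lists were chosen with earlier results of these data known. Outside the 9, genes are named where called against control (at most 4 per list by adjusted p), otherwise at most 2 per list by level. Per2, Arntl and genes named for 7 d against 12 h were chosen after their values were seen. Alternatives were pseudocounts of 0.1 and 1, dropping the filter or raising it to a mean of 5 RPKM, median-ratio, upper-quartile and quantile scaling, the title code or Y-linked mRNA as a covariate, fitting only the compared groups, and leaving out each heart. Both covariates together, and the Y-linked slope, were added after the data were seen. Ren1, Gp1bb, Gp6, Hba-a1 and Hbb-b2 were not analysed here. Ccl21a was read from the row of its near-identical copy Ccl21b and is uncertain. Gene positions are from GENCODE vM1 (mm9), and promoter windows from RefSeq were placed on mm9 by sequence.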

Additional observations from a re-analysis of the deposited data

Results flagged for a closer look

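Flt1 and Ace differed between times of induction in tests of the difference itself. Flt1 differed by 0.72 on the log2 scale at 24 h against 12 h (limma adjusted p = 0.00367) and by -0.53 at 72 h against 24 h (adjusted p = 0.0308), and Ace differed by 1.08 at 7 d against 12 h (adjusted p = 0.0161). The first Flt1 call was lost in a fit of the compared groups alone (adjusted p = 0.106), and the second without any 1 of the 6 hearts. With Y-linked mRNA as a covariate the Ace difference was 0.22 (adjusted p = 0.674), and in that comparison it cannot be told apart from the length of induction. For Kdr and for Flt1, every heart at 7 d also lay on one side of the control mean and every heart at 24 h on the other. The other endothelial genes lacked this pattern. Its share among all tested genes was not counted, so whether it is unusual in groups of 3 hearts cannot be told. The mean of Kdr was 16.3 RPKM higher at 7 d than at 24 h, and the mean difference of Flt1 was -8.32 RPKM at 7 d against 24 h. The differences between 7 d and 24 h were not tested. Groups of 3 hearts were too small for a test of outlying hearts.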

How the results depend on the processing

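The counts of the 9 genes called depended on the covariates, on the groups fitted and on single hearts. Without a filter on low values, 12 h against control gave 1 (Flt1) in place of 0. With the title code as a covariate, the counts were 2 at 12 h (Flt1 and Ace), 1 at 24 h (Kdr), 1 at 72 h (Vwf) and 0 at 7 d against control, 3 at 24 h against 12 h (Kdr, Flt1 and Ace) and 4 in the F-test (Kdr, Flt1, Vwf and Ace). With Y-linked mRNA as a covariate, the counts were 0 for 7 d against control, 72 h against 24 h and 7 d against 12 h. With both covariates they were 0 for the same 3 comparisons and 2 for 12 h against control (Flt1 and Ace). In fits of the compared groups alone they were 0 for 7 d against control, 24 h against 12 h and 72 h against 24 h. Leaving out single hearts gave 0 to 1 for 12 h against control, 0 to 0 for 7 d against control and for 72 h against 24 h, and 0 to 1 for 7 d against 12 h. The causes of these changes were not tested.

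Leaving out single hearts moved the Tek to Tie1 difference from control across 0 at 12 h (-0.022 to 0.26), 24 h (-0.25 to 0.19) and 7 d (-0.16 to 0.21). Of 1449 other values for single genes, 1276 kept their direction and their side of the threshold, 130 that did not pass changed sign, 25 lost and 18 gained a call, and 0 calls reversed. Of 569 values for called genes of the other lists, 374 kept their call and 193 lost it. The other 2, both without a call, reversed with the title code and Y-linked mRNA as covariates at 7 d against 12 h, namely Ctnnb1 (-0.0756 on the log2 scale) and Mas1 (0.0778). Ace passed the F-test under median-ratio scaling (adjusted p = 0.0497), upper-quartile scaling (0.0400) and quantile normalization (0.0432), and without heart 1 of the 24 h group (0.0216) or heart 1 (0.0472) or 3 (0.0356) of the control group. No paired analysis was possible because the titles carry no replicate numbers that link single hearts of different groups, and the title code, which groups share, was fitted as a covariate in its place. Read depth is unknown, so what it limits could not be given.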
